A study of Homo sapiens with 6 samples.

Results

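The genes described here encode the soluble hydrolases of the lysosome lumen, the activator and partner proteins that work beside them, and the receptors and enzymes that sort them to the lysosome. The list held 45 genes, taken from a table of 19330 transcripts by gene symbol with the cathepsins left out. It was put together with results of this same comparison known, so the changes of its members are given below as a description, and their number is no evidence about lysosomal genes as a class. Of the 45 members, 44 were in the table and 38 passed the filter on low counts, which kept 9202 genes in all. NPC2 was not analysed here. GAA, IDUA, IDS, LIPA, LGMN and GNPTG had too few footprints to be tested.

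The values came from ribosome profiling (Ribo-Seq) in K562, a cell line from a human chronic myelogenous leukemia that expresses erythroid genes. Ribo-Seq sequences the fragments of mRNA that ribosomes protect from a nuclease, so that the footprints counted on a coding sequence (CDS) measure ribosome occupancy. All cells were transduced with the lentiviral CRISPR vector pLentiCRISPRv2, selected with puromycin for 48 h and cultured until 10 days after infection. The 3 sgN6AMT1 libraries came from cells whose guide targeted N6AMT1, a methyltransferase that modifies the release factor eRF1, and the 3 sgCtrl libraries from cells whose guides targeted the olfactory receptor genes OR11A1 and OR2M49 as the labels spell them (OR2M4 for the latter in the study's methods). Each library was described as an independent transduction, no picking of clones was described, and the labels do not give which control guide each sgCtrl library carried.

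Hydrolases of the lysosome lumen are made on ribosomes at the endoplasmic reticulum, receive N-linked sugar chains there, and in the Golgi most acquire a mannose phosphate tag. Receptors for the tag, or the receptor sortilin, carry them to endosomes, where the acidic lumen releases them. In the lysosome, glycosidases and sulfatases take sugars and sulfates one at a time from glycoproteins, glycolipids and glycosaminoglycans, and lipid enzymes work together with small activator proteins that lift their substrates out of membranes. Loss of single members causes lysosomal storage diseases, among them Tay-Sachs disease for HEXA and Krabbe disease for GALC.

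The libraries held between 1821356 and 2969736 counted footprints. N6AMT1 itself held 25, 24 and 34 footprints with sgCtrl and 10, 9 and 8 with sgN6AMT1, and it fell in sgN6AMT1 cells (log2 fold change −1.51 ± 0.31 SE, adjusted p = 6.69e-05, edgeR quasi-likelihood test), the direction that the labels give. All 12 erythroid markers listed for K562 cells passed the filter. ALAS2 (log2 fold change 1.68), HBE1 and TAL1 were higher, and TFRC, HBZ, GATA1 (−0.29) and KLF1 (−0.37) were lower. That is 3 higher and 4 lower, where 12.9% of all genes tested were higher and 13.9% were lower. Globin genes held most of the counts of the 12 markers. The summed share of all 12 was 2.74% ± 0.0736 of the counts in sgCtrl and 2.89% ± 0.0485 in sgN6AMT1 (SD, n = 3). Of 10 lymphocyte markers only CD3D was tested, and it did not pass (log2 fold change −0.31, adjusted p = 0.114). Of 17 monocyte and macrophage markers, 16 were in the table, and their summed level ranged from 69.5 to 82.1 CPM (counts scaled to the library size) in sgCtrl and from 181 to 189 CPM in sgN6AMT1. Only 4 of these markers passed the filter, and each was called higher, against 12.9% of all genes tested. They were CD68 (from 16, 29 and 15 to 84, 104 and 78 footprints), LYZ, SPI1 and TYROBP. TYROBP (3, 1 and 1 against 18, 18 and 11 footprints) reached the count minimum of the filter in the sgN6AMT1 libraries only, so it passed only through being higher there. ITGAM was not tested, with 2, 1 and 0 footprints in sgCtrl against 17, 9 and 15 in sgN6AMT1. CSF1R, FCGR3A and FCER1G held at most 2 footprints in any library. CD14, CD163, MRC1, MARCO, MSR1, CD86, C1QA and C1QB were at 0 in every library. Macrophages are rich in lysosomes, and the part of these markers in the results below was not tested.

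Footprints on the members took up a larger share of all footprints in N6AMT1-depleted cells. The members together accounted for 0.337%, 0.333% and 0.335% of the counts in the sgCtrl libraries and for 0.523%, 0.518% and 0.517% in the sgN6AMT1 libraries. The means were 0.335% ± 0.00225 and 0.519% ± 0.00341 (SD, n = 3), and the groups did not overlap. PSAP, which encodes prosaposin, the precursor of the saposins that activate several sphingolipid hydrolases, supplied the largest single part. Without PSAP the means were 0.241% ± 0.00159 and 0.345% ± 0.00324. Footprint counts move with the amount of mRNA as well as with its translation, and with the mix of cells as well as with the content of each cell, and these cannot be told apart in these libraries.

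**Figure D1:**
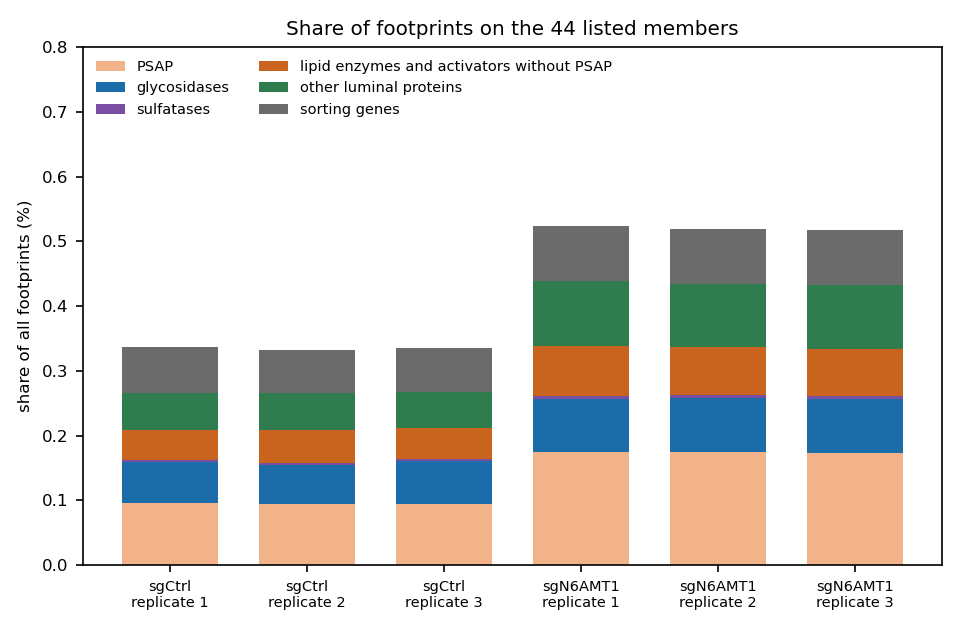
Share of all counted footprints (%, y axis) that fell on the 44 members in the table, for each of the 3 sgCtrl and 3 sgN6AMT1 libraries (x axis). Colors mark PSAP and the role classes. The stacks reach 0.333% to 0.337% in sgCtrl and 0.517% to 0.523% in sgN6AMT1, and the sulfatases form the thinnest layer.

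Across the 38 tested members, 21 were higher in sgN6AMT1 at an adjusted p under 0.05 and 0 were lower (edgeR), where 12.9% of all genes tested were higher and 13.9% were lower. Their median log2 fold change was 0.44, against 0.01 over all genes tested. Of the 38 values, 35 were above 0, where this held for 4690 of all 9202 genes tested. In 24 members all sgN6AMT1 libraries lay above all sgCtrl libraries, where this held for 18.4% of all genes tested. The lipid enzymes and activators had 8 of 9 tested members higher (median log2 fold change 0.63), the other luminal proteins 5 of 9 (0.48), the glycosidases 5 of 11 (0.45), the sulfatases 1 of 4 (0.50) and the sorting genes 2 of 5 (0.15). The differences between the classes were not tested. Below, ± after a CPM is the SD of the 3 libraries of a group, and ± after a log2 fold change is its SE. Above the 95th percentile of all genes tested (a log2 fold change of 0.71) lay 9 members, which were ACP5, GM2A, SGSH, DNASE2, GRN, ASAH1, GALC, CREG1 and PSAP, and below the 5th percentile lay 0. ACP5 reached the count minimum of the filter in the sgN6AMT1 libraries only, so it passed the filter only through being higher there, as was the case for 81 of all 9202 genes tested. Without ACP5, 20 of 37 members were higher, with a median of 0.43. The other luminal proteins then had 4 of 8 higher, with a median of 0.42, below that of the glycosidases and sulfatases. ARSB had sgCtrl counts near that minimum and also passed the filter mainly through its sgN6AMT1 libraries. With DESeq2, 15 of the 21 were higher, where DESeq2 called 5.49% of its genes higher and 6.91% lower.

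**Figure D2:**
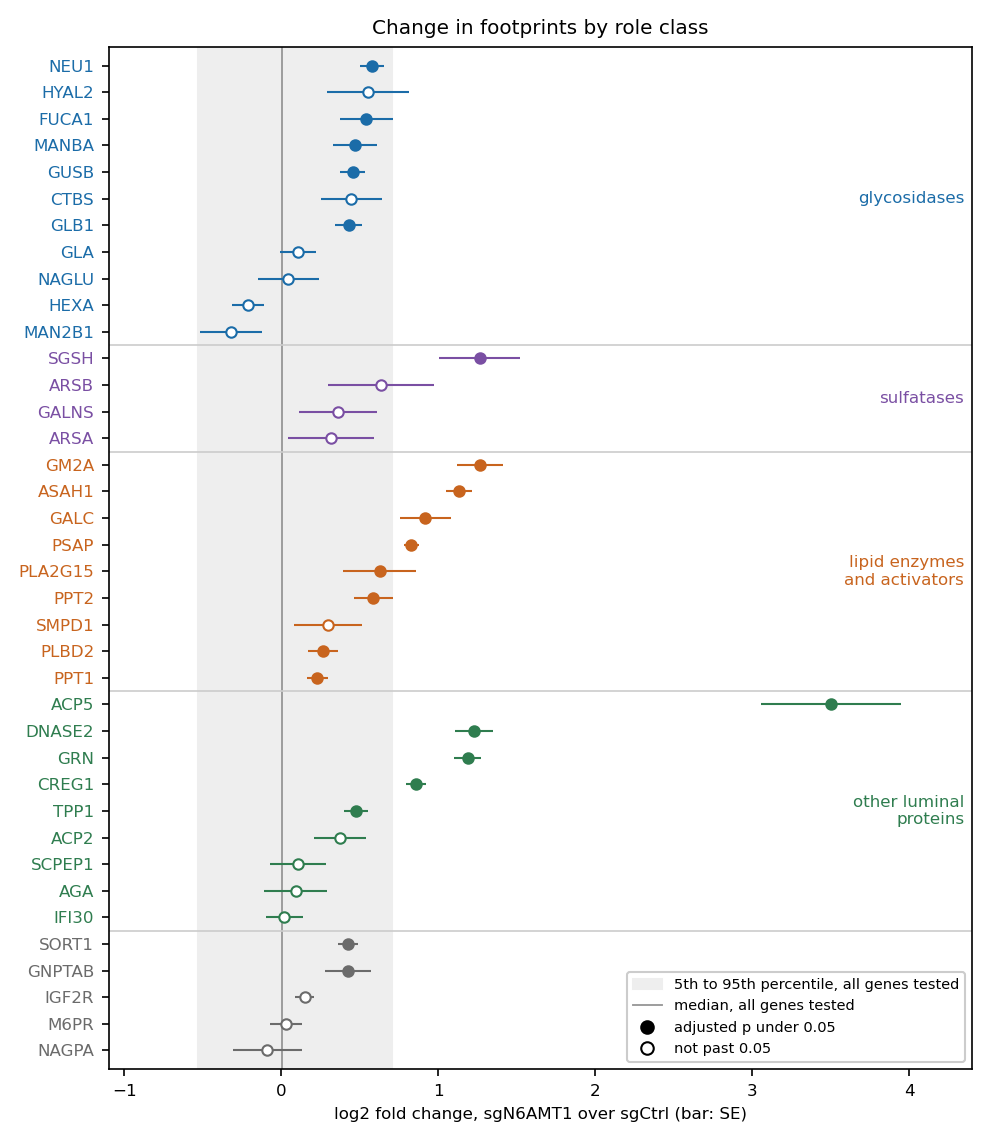
Log2 fold change of footprints, sgN6AMT1 over sgCtrl (x axis), for the 38 tested members (y axis), grouped by role. Points are edgeR estimates from 3 libraries per group, bars are ± 1 SE, filled points passed an adjusted p of 0.05, and the grey band spans the 5th to 95th percentile of all 9202 genes tested (−0.53 to 0.71). The lipid enzymes and activators lie to the right of 0 as a class, from 0.23 for PPT1 to 1.26 for GM2A, while the glycosidases reach from −0.32 for MAN2B1 to 0.58 for NEU1.

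Promoters of the members were searched for an E-box that several transcription factors of the MiT family bind in lysosomal genes, as a feature that the choice of members did not use. The 8-letter motif TCACGTGA reads the same on both strands and contains the shorter core CACGTG. RefSeq windows of 300 bases on GRCh38.p14, from 250 before to 50 after a start site, were given for 37 members. The motif was in the windows of 7 of them (18.9%), against 2.49% of all tested genes with a window and 1.18% of all genes with one. It was in 4 of 31 luminal members (12.9%) and 3 of 6 sorting genes (50%), and outside the list in 4 of 21 lysosomal membrane proteins (19.0%) and 1 of 10 cathepsins (10%), so it is not particular to the members. The core was in 12 of the 37 (32.4%), against 13.5% of the tested genes and 8.77% of all genes with a window. HEXA, NAGLU, MANBA, ARSA, SGSH, ASAH1, PSAP and LGMN had no window. The sites are shown because the motif was more frequent among the members than over all windows, and each line gives 30 bases of the gene's strand, 5′ to 3′, with the motif in capitals.
IGF2R (133 bases before the start, chr6:159968938-159968967, plus strand): gcgcgctgcgcTCACGTGAcccgggcctgg
IGF2R (75 bases before the start, chr6:159968996-159969025, plus strand): gaacaagggagTCACGTGAgcggggggcgg
IGF2R (29 bases before the start, chr6:159969042-159969071, plus strand): ccgggcggctgTCACGTGAcgcggttccgg
NAGPA (21 bases before the start, chr16:5033938-5033967, minus strand): tgggacttgagTCACGTGAggcgagcccac
GNPTG (13 bases before the start, chr16:1351907-1351936, plus strand): ggtccccgtggTCACGTGAccgtcacttca
PLBD2 (25 bases before the start, chr12:113358551-113358580, plus strand): gcagagcgcagTCACGTGAcccgggctgcg
SCPEP1 (28 bases before the start, chr17:56978092-56978121, plus strand): gtccgcctccgTCACGTGAtggggcgccgg
GALNS (175 bases before the start, chr16:88857104-88857133, minus strand): caggcaccgcgTCACGTGAcccgccgctgg
GAA (77 bases before the start, chr17:80101493-80101522, plus strand): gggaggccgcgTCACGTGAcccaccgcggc
GAA and GNPTG each held a second match that is not printed, 32 bases before the start in GAA and 3 bases after it in GNPTG. Of these 7 genes, GAA and GNPTG were not tested for change, and of the other 5 only PLBD2 was higher. The median log2 fold change of the 5 was 0.15, and that of the 26 tested members whose windows lacked the motif was 0.47, with 16 of them higher. Over all tested genes with a window, 25 of 179 with the motif and 909 of 6997 without it were higher (medians −0.01 and 0.01). The 5 include the sorting genes IGF2R and NAGPA, and among luminal members alone the medians were 0.27 with the motif and 0.54 without it. These differences were not tested. A match of letters is not a site of binding, and a window without it says only that these letters were not there.

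With edgeR, members that encode lipid enzymes and lipid-binding activators had the largest share of genes that rose. With DESeq2 that share was 5 of 9, the same as in the other luminal proteins, ACP5 included. PSAP held 1936, 2790 and 1955 footprints with sgCtrl and 3917, 3987 and 3147 with sgN6AMT1. Its level rose from 966 ± 5.64 to 1716 ± 7.11 CPM (SD, n = 3; log2 fold change 0.83 ± 0.05, adjusted p = 2.51e-29), with little spread within a group. GM2A, the activator that presents the ganglioside GM2 to beta-hexosaminidase A, held 44, 59 and 35 footprints with sgCtrl and 107, 114 and 88 with sgN6AMT1. It rose from 19.9 ± 2.45 to 48.0 ± 1.19 CPM (log2 fold change 1.26 ± 0.15, adjusted p = 1.21e-11), the largest log2 fold change of the class. ASAH1 encodes acid ceramidase, which splits ceramide into sphingosine and a fatty acid, and it held 162, 306 and 180 footprints with sgCtrl and 489, 468 and 357 with sgN6AMT1. Its level rose from 91.9 ± 12.4 to 203 ± 10.3 CPM (log2 fold change 1.13 ± 0.08, adjusted p = 1.60e-21). GALC, the galactosylceramidase that degrades myelin lipids, held 35, 53 and 37 footprints with sgCtrl and 83, 76 and 61 with sgN6AMT1 and rose from 18.0 ± 0.390 to 34.1 ± 1.97 CPM (log2 fold change 0.92 ± 0.16, adjusted p = 4.32e-06). None of these 4 genes had an sgN6AMT1 library within the range of the sgCtrl libraries.

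Smaller increases completed the lipid class. PPT2, a lysosomal thioesterase, held 71, 125 and 83 footprints with sgCtrl and 159, 121 and 109 with sgN6AMT1 and rose from 39.9 ± 3.82 to 60.4 ± 8.77 CPM (log2 fold change 0.59 ± 0.12, adjusted p = 9.69e-05). PLA2G15, the lysosomal phospholipase A2, held 21, 26 and 21 footprints with sgCtrl and 39, 33 and 26 with sgN6AMT1 and rose from 9.96 ± 0.864 to 15.2 ± 1.68 CPM (log2 fold change 0.63 ± 0.23, adjusted p = 0.0359). At this depth the PLA2G15 call was unstable and was lost in 8 of 14 alternatives, at an adjusted p of 0.274 with DESeq2, 0.0562 with no filter, 0.0619 with length and GC trends removed, 0.0507, 0.150 and 0.0546 without sgCtrl replicates 1, 2 and 3, and 0.153 and 0.0603 without sgN6AMT1 replicates 1 and 2. PLBD2, a phospholipase B-like protein, had a log2 fold change of 0.27 (adjusted p = 0.0306), and PPT1, the palmitoyl-protein thioesterase, of 0.23 (adjusted p = 0.00475). The PLBD2 call was lost with DESeq2 (adjusted p = 0.202) and without sgCtrl replicate 3 (0.221), sgN6AMT1 replicate 2 (0.0750) or sgN6AMT1 replicate 3 (0.0936), and the PPT1 call with DESeq2 (0.0673). SMPD1, acid sphingomyelinase, was the one tested member of the class that did not pass. It held 31, 35 and 31 footprints with sgCtrl and 35, 32 and 44 with sgN6AMT1, with group means of 14.3 ± 1.95 and 17.7 ± 5.42 CPM (log2 fold change 0.30, adjusted p = 0.325), and the groups overlapped. LIPA, the acid lipase of cholesteryl esters, held 0, 0 and 0 against 1, 1 and 0 footprints, too few for any comparison.

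**Figure D3:**
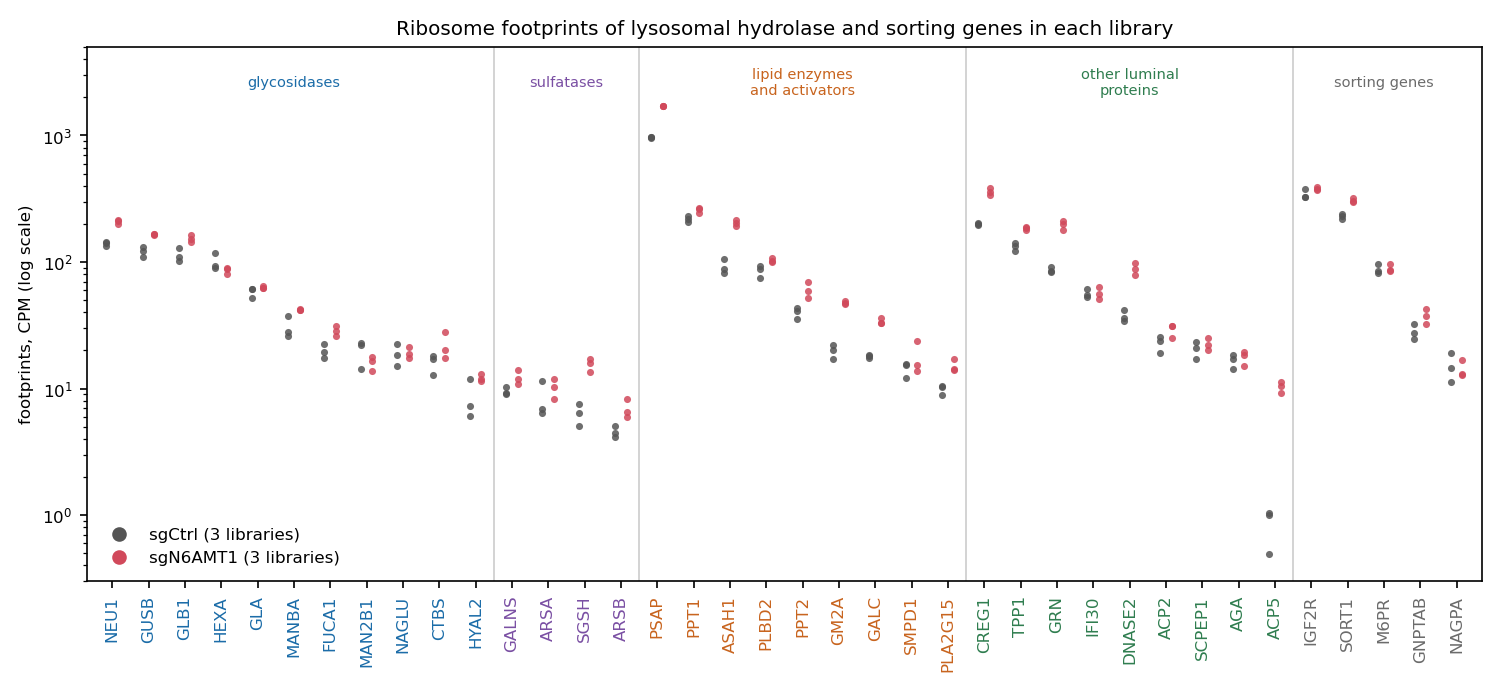
Footprints in CPM (y axis, log scale) of the 38 tested members (x axis, ordered within each role class by the sgCtrl mean), with 1 point per library. Grey points are the 3 sgCtrl and red points the 3 sgN6AMT1 libraries. PSAP stands highest, near 966 CPM in sgCtrl and 1716 CPM in sgN6AMT1, and ACP5 lowest, at most 1.03 CPM in any sgCtrl library.

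The glycosidases were split between genes that rose and genes that did not pass. NEU1, the lysosomal sialidase, held 264, 417 and 285 footprints with sgCtrl and 483, 462 and 393 with sgN6AMT1 and rose from 139 ± 5.74 to 208 ± 7.51 CPM (log2 fold change 0.58 ± 0.07, adjusted p = 3.44e-10). GUSB, beta-glucuronidase, held 262, 319 and 250 footprints with sgCtrl and 371, 384 and 309 with sgN6AMT1 and rose from 122 ± 10.9 to 165 ± 2.60 CPM (log2 fold change 0.45 ± 0.08, adjusted p = 3.53e-06). GUSB has pseudogene copies in the genome that could take or lend reads, so its counts are uncertain. GLB1, the beta-galactosidase of the ganglioside GM1 and of keratan sulfate, held 219, 295 and 263 footprints with sgCtrl and 327, 349 and 300 with sgN6AMT1 and rose from 114 ± 14.4 to 152 ± 9.86 CPM (log2 fold change 0.43 ± 0.09, adjusted p = 3.43e-05). All sgN6AMT1 libraries lay above all sgCtrl libraries in these 3 genes. FUCA1, which removes fucose from glycoproteins, held 39, 51 and 46 footprints with sgCtrl and 65, 72 and 48 with sgN6AMT1 and rose from 20.0 ± 2.57 to 28.6 ± 2.53 CPM (log2 fold change 0.54 ± 0.17, adjusted p = 0.0108). MANBA, the beta-mannosidase, held 75, 81 and 53 footprints with sgCtrl and 97, 96 and 77 with sgN6AMT1 and rose from 30.6 ± 6.21 to 41.9 ± 0.533 CPM (log2 fold change 0.47 ± 0.14, adjusted p = 0.00671). Neither FUCA1 nor MANBA had overlapping groups. The FUCA1 call was lost with DESeq2 (adjusted p = 0.163) and without sgCtrl replicate 2 (0.0976) or sgN6AMT1 replicate 2 (0.0832), and the MANBA call with DESeq2 (0.141) and without sgCtrl replicate 2 (0.0761) or 3 (0.0540).

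HEXA, the alpha subunit of beta-hexosaminidase A, did not rise with its activator GM2A. It held 177, 271 and 241 footprints with sgCtrl and 204, 203 and 149 with sgN6AMT1, or 88.9, 93.4 and 119 CPM against 89.4, 87.7 and 80.9 CPM. The log2 fold change of HEXA was −0.21 ± 0.10 (adjusted p = 0.106), and sgCtrl replicate 3 stood above the other 5 libraries. HEXA passed as lower once trends on length and GC content were removed (adjusted p = 0.0344) and without sgCtrl replicate 1 (0.0379), but leaving out sgCtrl replicate 3 brought it to −0.09 on the log2 scale (adjusted p = 0.622). GLA, the alpha-galactosidase A of globotriaosylceramide, differed by 0.11 on the log2 scale (adjusted p = 0.537), from 58.3 ± 5.23 to 63.0 ± 1.58 CPM. NAGLU, an enzyme of heparan sulfate breakdown, differed by 0.05, and MAN2B1, the lysosomal alpha-mannosidase, by −0.32 (adjusted p = 0.245), with overlapping groups in both. CTBS, the chitobiase that opens the core of sugar chains, had a log2 fold change of 0.45 (adjusted p = 0.0819) and HYAL2, a hyaluronidase held at membranes by a lipid anchor, one of 0.55 (adjusted p = 0.112). These values were as large as those of called glycosidases but came from fewer footprints, 12, 21 and 24 against 26, 30 and 22 in the case of HYAL2. CTBS passed without sgN6AMT1 replicate 1 (adjusted p = 0.0279) and HYAL2 without sgCtrl replicate 3 (0.0303). GAA, the acid alpha-glucosidase of glycogen, held 4, 4 and 3 against 2, 2 and 2 footprints, and IDUA, the alpha-L-iduronidase, 6, 10 and 5 against 6, 7 and 4. Per depth, the summed counts of sgN6AMT1 over sgCtrl gave a ratio of 0.586 (95% exact interval 0.178 to 1.73) for GAA and of 0.870 (95% exact interval 0.431 to 1.73) for IDUA, so a difference was not detectable at this depth.

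Sulfatases had the fewest footprints of the classes, with 59 to 86 footprints per sgCtrl library and 86 to 119 per sgN6AMT1 library over all 5 genes. SGSH, the sulfamidase of heparan sulfate, held 10, 22 and 13 footprints with sgCtrl and 39, 37 and 25 with sgN6AMT1 and rose from 6.34 ± 1.28 to 15.6 ± 1.80 CPM (log2 fold change 1.26 ± 0.26, adjusted p = 5.01e-05). It passed in all 14 alternatives that tested it. GALNS, which removes sulfate from keratan sulfate and chondroitin sulfate, held 18, 27 and 21 footprints with sgCtrl and 32, 25 and 22 with sgN6AMT1 and went from 9.57 ± 0.693 to 12.3 ± 1.64 CPM (log2 fold change 0.36 ± 0.25, adjusted p = 0.297). ARSA, the sulfatase of sulfatide, differed by 0.32 (adjusted p = 0.432) and ARSB, the sulfatase of dermatan sulfate, by 0.63 (adjusted p = 0.165), from 10, 12 and 9 against 19, 15 and 11 footprints. The sgCtrl counts of ARSB lay near the count minimum of the filter, so it was tested mainly through sgN6AMT1. The median of the sulfatases depends on its value. IDS, iduronate sulfatase, was not tested and held 4, 5 and 3 against 10, 8 and 6 footprints, a ratio of 2.15 (95% exact interval 1.03 to 4.72), and its pseudogene copy makes its counts uncertain. All 5 sulfatases thus had higher mean levels in sgN6AMT1, and 1 of the 4 tested passed.

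Among the other luminal proteins, 5 members were called higher, ACP5 among them. ACP5, the tartrate-resistant acid phosphatase known from osteoclasts and macrophages, had few footprints in control cells, 2, 3 and 1 against 24, 26 and 17 in sgN6AMT1 cells. The ratio of its summed counts per depth was 12.0 (95% exact interval 5.23 to 33.9) and, since the gene passed the filter through sgN6AMT1 alone, the adjusted p given is that of edgeR with no filter, 3.13e-12. Its fitted log2 fold change of 3.50 depends on the prior count, since the sgCtrl counts were at the floor of 3. DNASE2, the acid nuclease that digests DNA of engulfed cells, held 72, 122 and 69 footprints with sgCtrl and 226, 202 and 145 with sgN6AMT1 and rose from 37.4 ± 4.16 to 88.3 ± 10.2 CPM (log2 fold change 1.23 ± 0.12, adjusted p = 4.49e-15). GRN encodes progranulin, which is delivered to lysosomes and cut into granulins there, and it held 170, 241 and 186 footprints with sgCtrl and 409, 463 and 392 with sgN6AMT1. Its level rose from 86.7 ± 4.46 to 197 ± 16.9 CPM (log2 fold change 1.19 ± 0.08, adjusted p = 1.85e-22). CREG1, a secreted and lysosomal glycoprotein, held 392, 575 and 413 footprints with sgCtrl and 881, 783 and 660 with sgN6AMT1 and rose from 199.6 ± 3.55 to 361 ± 24.0 CPM (log2 fold change 0.86 ± 0.06, adjusted p = 4.43e-21). TPP1, the tripeptidyl peptidase that trims peptides from their N-terminal end, held 279, 389 and 248 footprints with sgCtrl and 406, 440 and 340 with sgN6AMT1 and rose from 132 ± 9.10 to 184 ± 6.08 CPM (log2 fold change 0.48 ± 0.08, adjusted p = 3.40e-07). DNASE2, GRN, CREG1 and TPP1 had groups that did not overlap and passed in every alternative that tested them.

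Within the same class IFI30, a thiol reductase of antigen processing, held 105, 159 and 124 footprints with sgCtrl and 117, 146 and 103 with sgN6AMT1, with groups that overlapped and means that went from 56.2 ± 4.37 to 56.8 ± 5.94 CPM (log2 fold change 0.02 ± 0.12, adjusted p = 0.935). ACP2, the lysosomal acid phosphatase, had a log2 fold change of 0.37 (adjusted p = 0.0879), SCPEP1, a serine carboxypeptidase, of 0.11 (0.715) and AGA, which cuts the bond between sugar chain and asparagine, of 0.09 (0.781). LGMN, the asparaginyl endopeptidase, held 0, 1 and 0 against 2, 2 and 0 footprints, at or under the floor of 3 in every library.

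Sorting genes had the smallest median change of the 5 classes. SORT1, which encodes sortilin, the receptor that carries prosaposin, acid sphingomyelinase and progranulin, held 438, 691 and 465 footprints with sgCtrl and 729, 706 and 553 with sgN6AMT1. It rose from 229 ± 9.11 to 308 ± 10.1 CPM (log2 fold change 0.43 ± 0.06, adjusted p = 4.28e-08), and the groups did not overlap. GNPTAB, the alpha and beta subunits of the phosphotransferase that starts the mannose phosphate tag, held 49, 80 and 66 footprints with sgCtrl and 85, 99 and 60 with sgN6AMT1 and rose from 28.2 ± 4.00 to 37.5 ± 5.11 CPM (log2 fold change 0.42 ± 0.15, adjusted p = 0.0216). Its call was lost with DESeq2 (adjusted p = 0.238) and without sgCtrl replicate 1 (0.101), sgCtrl replicate 2 (0.0892) or sgN6AMT1 replicate 2 (0.196). IGF2R, the cation-independent mannose 6-phosphate receptor, held 755, 953 and 658 footprints with sgCtrl and 864, 863 and 721 with sgN6AMT1, with means that went from 344 ± 30.5 to 381 ± 9.49 CPM (log2 fold change 0.15 ± 0.06, adjusted p = 0.0510). It lay next to the threshold and passed as higher in 5 of 15 alternatives, among them the fit without sgCtrl replicate 1 (adjusted p = 0.00722). M6PR, the cation-dependent receptor of the same tag, differed by 0.03 (adjusted p = 0.864), with 170, 236 and 194 against 195, 199 and 177 footprints. NAGPA, the enzyme that uncovers the tag, differed by −0.09 (adjusted p = 0.811). GNPTG, the gamma subunit of the phosphotransferase, was below the filter with 14, 11 and 7 against 10, 12 and 5 footprints, a ratio of 0.907 (95% exact interval 0.523 to 1.56).

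Levels of different genes were compared per length, as CPM of the total count per kilobase of CDS, in the members whose transcript had an annotated CDS. PSAP, MANBA, NEU1, PPT2 and ACP5 had no matched transcript in GENCODE release 44 and have no such level here. CREG1 had the highest level of the rest (294 ± 4.64 and 552 ± 36.2 in sgCtrl and sgN6AMT1, SD, n = 3), followed by PPT1 (233 ± 11.5 and 283 ± 14.05), whose listed transcript is annotated as a target of nonsense-mediated decay. The next in sgCtrl were M6PR (102 ± 8.48 and 108 ± 7.06) and SORT1 (89.7 ± 3.43 and 125 ± 4.15), and SORT1 lay below M6PR in sgCtrl and above it in sgN6AMT1. ASAH1 rose from a level close to those of IFI30 and TPP1 (72.6, 73.0 and 76.3 in sgCtrl) to 167 in sgN6AMT1, against 76.4 and 110.4. IGF2R, with 7476 bases the longest CDS among the members, had a level of 44.98 in sgCtrl despite its high CPM. ARSB was the lowest of the tested members (2.77 ± 0.280 and 4.38 ± 0.786).

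The members shared a feature of secreted glycoproteins. Each of the 33 tested members with a CDS encoded at least 1 sequon, the asparagine motif that can carry an N-linked sugar chain, with a median of 5 and a range of 1 to 20. Over all 8607 tested genes with a CDS, the median was 2 and 76.6% had any. The number of sequons did not order the changes, since its correlation across the 33 genes with the log2 fold change was −0.18 (Pearson) and −0.08 (Spearman), as a description over genes that share the same libraries. Neither CDS length (Pearson −0.25), CDS GC content (0.03) nor mean level (−0.13 over 38 genes) was more than weakly related to it. GM2A, at chr5:151253185-151270440, plus strand (GRCh38), had the shortest CDS of 582 bases and 1 sequon. GRN lies at chr17:44345302-44353106, plus strand, DNASE2 at chr19:12875209-12881449, minus strand, SORT1 at chr1:109309575-109397918, minus strand and SGSH at chr17:80209276-80220333, minus strand.

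Because several products act as partners, counts were also set against each other within each library. These pairs, and the genes outside the list that they use, were chosen after the values had been seen, and the ratios were not tested. The ratio of GM2A to HEXA was 0.249, 0.218 and 0.145 with sgCtrl and 0.525, 0.562 and 0.591 with sgN6AMT1. PSAP over GLA, whose enzyme needs a saposin, was 15.9, 15.7 and 18.4 with sgCtrl and 27.8, 26.6 and 27.4 with sgN6AMT1. By contrast PSAP over GALC differed little, at 55.3, 52.6 and 52.8 with sgCtrl and 47.2, 52.5 and 51.6 with sgN6AMT1. PSAP over ASAH1 was 12.0, 9.12 and 10.9 with sgCtrl and 8.01, 8.52 and 8.82 with sgN6AMT1. Both ratios were lower in all sgN6AMT1 libraries than in any sgCtrl library. GLB1 forms a complex with NEU1 and the protective protein encoded by CTSA. NEU1 over GLB1 overlapped between the groups, with 1.21, 1.41 and 1.08 with sgCtrl and 1.48, 1.32 and 1.31 with sgN6AMT1, and GLB1 over CTSA was 1.30, 1.30 and 1.39 with sgCtrl and 1.01, 0.969 and 1.11 with sgN6AMT1. The ratio of GRN to its receptor SORT1 was 0.388, 0.349 and 0.400 with sgCtrl and 0.561, 0.656 and 0.709 with sgN6AMT1, and the groups did not overlap. SORT1 over IGF2R was 0.580, 0.725 and 0.707 with sgCtrl and 0.844, 0.818 and 0.767 with sgN6AMT1, whereas M6PR over IGF2R overlapped.

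**Figure D4:**
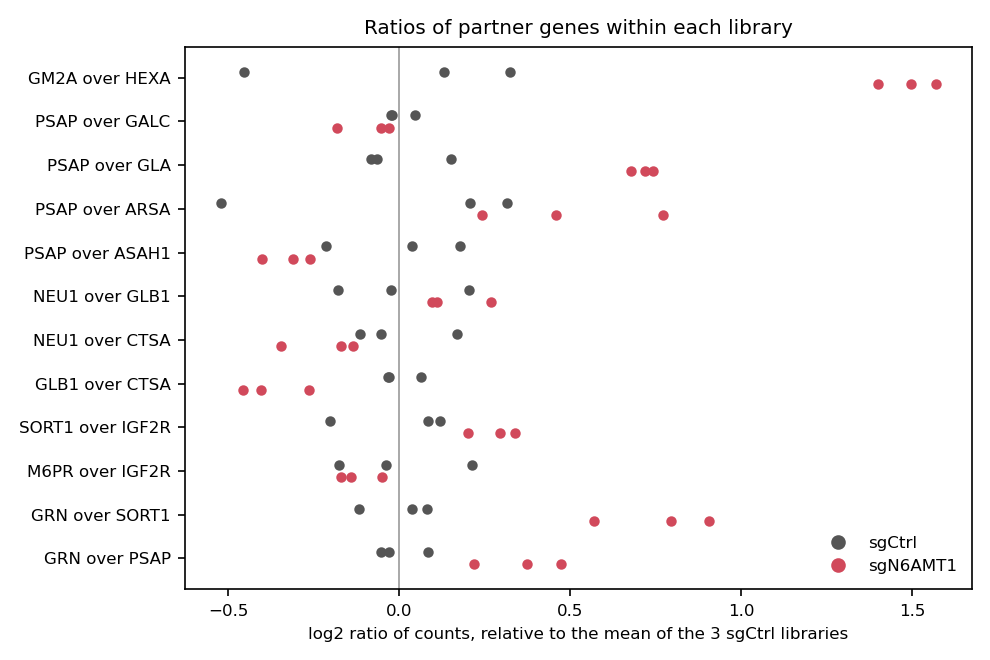
Ratios of footprint counts of partner genes within each library (x axis, log2 scale, relative to the mean of the 3 sgCtrl libraries), with 1 point per library. The ratio of GM2A to HEXA lies furthest to the right in sgN6AMT1, with a mean log2 difference of 1.49, and that of GRN to SORT1 differs by 0.76. NEU1 over GLB1, PSAP over ARSA and M6PR over IGF2R have groups that overlap.

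Sorted by substrate, in groups written after the values had been seen and that share genes, sphingolipid breakdown had 6 of 10 members higher (median log2 fold change 0.50), where 12.9% of all genes tested were higher. Glycoprotein sugar chains had 4 of 8 (0.44), and glycosaminoglycans 3 of 8 tested (0.44). Sphingolipid genes took up 0.150% ± 0.00156 of the counts in sgCtrl and 0.257% ± 0.000600 in sgN6AMT1, of which PSAP was the main part. The glycosaminoglycan genes took up 0.0379% ± 0.00373 and 0.0483% ± 0.000380.

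Lysosomal genes outside the list give the setting of these values, against 12.9% higher and 13.9% lower over all genes tested. Of 16 other luminal hydrolases tested, 6 were higher and 1 was lower, with a median log2 fold change of 0.28. PLD3, an exonuclease of the lysosome, rose (log2 fold change 0.60 ± 0.06, adjusted p = 8.02e-14), and so did RNASET2, an acid ribonuclease (log2 fold change 0.55 ± 0.09, adjusted p = 2.40e-07). FUCA2, a secreted fucosidase related to FUCA1, fell (log2 fold change −0.28 ± 0.07, adjusted p = 9.97e-04). The genes of hydrolase maturation, export and transport had 2 of 24 higher and 2 lower (8.33% each way), no more than over all genes tested, and their median of 0.03 went to −0.0086 without sgN6AMT1 replicate 2. VPS26B, a retromer subunit, rose (log2 fold change 0.61 ± 0.22, adjusted p = 0.0260), as did SCARB2, a membrane protein of lysosomes that acts as a sorting receptor (log2 fold change 0.59 ± 0.13, adjusted p = 1.48e-04). SNX5, a sorting nexin that recognizes the tail of IGF2R, fell (log2 fold change −0.44 ± 0.12, adjusted p = 0.00253), and so did VPS26A, the paralog of VPS26B (log2 fold change −0.26 ± 0.07, adjusted p = 0.00344). The VPS26B call was lost with DESeq2 (adjusted p = 0.254), limma-voom (0.0510) and without sgCtrl replicate 1 (0.0717), sgCtrl replicate 2 (0.0590) or sgN6AMT1 replicate 2 (0.526), where its log2 fold change was 0.25. That library held 64 footprints on VPS26B, and the other sgN6AMT1 libraries 37 and 27. The VPS26A call was lost with DESeq2 (adjusted p = 0.0576) and without sgCtrl replicate 2 (0.0849) or sgN6AMT1 replicate 2 (0.0510), and the SNX5 call without sgN6AMT1 replicate 3 (0.0518). The cathepsins had 8 of 9 higher (median 0.86), of which CTSE reached the count minimum in sgN6AMT1 only, and the lysosomal membrane proteins 8 of 26 (median 0.25).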

How the data were processed

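Per the labels and the study's methods, adapters were cut by the authors with cutadapt, reads of the length of a footprint were aligned to GRCh38, those on rRNA and tRNA were dropped, and the rest were mapped to 1 canonical transcript per gene with Bowtie2. The deposited values are whole-number footprint counts per transcript, neither normalized nor pooled. The study describes counts of P-sites over each CDS and counts of overlaps with an annotation, and which of them the table holds is not given in the sources used here. No molecular identifiers were described, and the intervals take each footprint as an independent count. They are computed on counts summed over the libraries of a group, so they leave out the spread between libraries.

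Genes were tested here with edgeR 4.0.16 in R 4.3.3: filterByExpr (minimum count 10), TMM factors, the robust quasi-likelihood F test, 2-sided, with Benjamini-Hochberg adjustment over 9202 genes, at a threshold of 0.05. Each log2 fold change gives sgN6AMT1 over sgCtrl, and its SE is the estimate divided by the root of F. CPM use TMM-adjusted library sizes. The common biological coefficient of variation was 4.36%. Ratios for untested genes are summed counts per adjusted depth with a 95% exact binomial interval. Alternatives were DESeq2 1.42.0, limma-voom 3.58.1, RLE and upper-quartile factors, total counts only, no filter, a mean of at least 50 counts, removal of length and GC trends (loess, span 0.5), the replicate block and leaving out each library in turn. The tests were also run on simulated counts in which only genes with higher counts were changed, and fewer genes than were called here. That run does not show how the tests perform on low counts.

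Transcripts were matched by identifier to GENCODE release 44 (17687 of 19330), on the build of the authors but with another annotation. The motif search and coordinates of promoter windows used RefSeq windows on GRCh38.p14. The 45 members and all lists were chosen with earlier results of these data known. Every member is named. Full values went to up to 6 called members per class by size of change and to the member not past the threshold with the largest mean CPM, and in the other lists to up to 3 called genes per direction. A pair of genes outside the member list that this rule or the ratios would name is not reported here by name.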

Additional observations from a re-analysis of the deposited data

How the results depend on the processing

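Of the 21 members called higher, 15 passed in every one of the 15 alternatives that tested them, 6 (FUCA1, GNPTAB, MANBA, PLA2G15, PLBD2 and PPT1) were lost in at least 1, and 0 changed sign. Of the 17 not called, 5 (ACP2, CTBS, HEXA, HYAL2 and IGF2R) passed in at least 1. DESeq2 called 1329 genes changed against 2473, and 1 higher and 1 lower gene of maturation, export and transport and 4 higher membrane proteins. Limma-voom and the filter at a mean of 50 counts each left 1 higher gene of maturation, export and transport. With total counts only, which moves the median of all genes to 0.06, the medians were 0.49 for the members, 0.20 for the sorting genes, 0.34 for other luminal hydrolases, 0.087 for maturation, export and transport, 0.92 for cathepsins and 0.30 for membrane proteins. At a mean of at least 50 counts, where no sulfatase was left, they were 0.49 for the members, 0.85 for lipid enzymes and activators, 0.69 for other luminal proteins, 0.31 for sorting genes and 0.41 for other luminal hydrolases, because fewer genes were tested. With length and GC trends removed, 1 member (HEXA) was lower and the sorting median was 0.23.

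Leaving out each library in turn gave 17 to 21 members higher and 0 to 1 lower (HEXA, without sgCtrl replicate 1), and for maturation, export and transport 1 to 2 higher and 1 to 2 lower. Its median ranged from −0.0086 (without sgN6AMT1 replicate 2) to 0.047, so it has no settled sign. The other medians ranged from 0.40 to 0.47 for the members, 0.37 to 0.47 for glycosidases, 0.44 to 0.65 for sulfatases, 0.53 to 0.69 for lipid enzymes and activators, 0.43 to 0.51 for other luminal proteins, 0.11 to 0.22 for sorting genes, 0.18 to 0.30 for other luminal hydrolases, 0.84 to 0.89 for cathepsins and 0.22 to 0.28 for membrane proteins. The share of counts on the members was 0.241% in sgCtrl and 0.345% in sgN6AMT1 without PSAP, and 0.523% in sgN6AMT1 with the mtDNA-encoded ORFs taken from the total. The share of members with a promoter motif was 32.4% with the shorter core. Without PSAP, and without ACP5 as the member that reached the count minimum in sgN6AMT1 only, both chosen after seeing the data, the median of the members was 0.43.

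Deviations of same-numbered libraries from their group means had correlations of −0.14, 0.04 and 0.003 over 5874 genes. Deviations within so small a group are tied to each other, so these values cannot show whether same-numbered libraries were prepared together. With the replicate number as a block, 2390 genes changed, 21 members were higher and the median of the members was 0.44. Depth limits the sulfatases, GAA, IDUA, LIPA, LGMN and GNPTG most.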
